A study of Mus musculus with 6 samples.

Results

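The cytotoxic granule genes described here are 8 genes of killer lymphocytes, Gzma, Gzmb, Gzmk, Gzmc, Prf1, Nkg7, Ifng and Fasl, chosen by their symbols from the 32285 genes of the count matrices. Their unique molecular identifiers (UMIs, one per captured transcript) were read in every matrix and described in 4 marker-gated cell groups, CD8 T cells, CD4 T cells, Foxp3 T cells and natural killer (NK) cells. The cells came from tumours raised in the pancreas of C57BL/6 mice by injecting KPC cells, which are murine pancreatic cancer cells. The injected line held vector alone (OE-Vector) or with a construct to overexpress MLKL, the effector of necroptosis (OE-MLKL). Both groups thus carried an injected, modified cancer line, and the construct was in the cancer cells, whereas the T and NK cells were cells of the host. The labels named 6 tumours, 3 per group, and count matrices of 1 OE-Vector tumour (OE-Vector 1) and 3 OE-MLKL tumours (OE-MLKL 1 to 3) were analysed. The other OE-Vector tumours were not analysed here, so the OE-Vector group and its single library cannot be told apart.

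Cytotoxic lymphocytes kill by releasing granules into the contact with a target cell. Perforin, encoded by Prf1, forms pores that let the granzymes, a family of serine proteases, into the target, where granzyme B cleaves caspases and other proteins and granzyme A acts through other substrates. NKG7 is a granule membrane protein that takes part in degranulation, Fas ligand triggers the Fas death receptor from the cell surface, and interferon-γ is the cytokine that the same cells secrete towards tumour and myeloid cells.

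By the GENCODE annotation of GRCm38, Gzma (ENSMUSG00000023132, chr13:113093825-113100981, minus strand) and Gzmk (ENSMUSG00000042385, chr13:113171608-113225908, minus strand) lay together on chromosome 13. Gzmb (ENSMUSG00000015437, chr14:56258838-56262260, minus strand) and Gzmc (ENSMUSG00000079186, chr14:56231441-56234656, minus strand) belonged to a group of 7 granzyme genes within 145 kb on chromosome 14. The granzymes C to G of that group are close paralogs, so how the authors' counting split reads between them is uncertain. Prf1 (ENSMUSG00000037202, chr10:61297833-61304680) and Ifng (ENSMUSG00000055170, chr10:118441046-118445892) were both on the plus strand of chromosome 10. Nkg7 (ENSMUSG00000004612) was at chr7:43437073-43438249 on the plus strand and Fasl (ENSMUSG00000000817) at chr1:161780689-161788495 on the minus strand.

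All 8 members matched a RefSeq promoter of GRCm38.p6, and the 250 bases before the transcription start were searched on both strands for the Runx core TGTGGT, the T-box core AGGTGT and the AP-1 motif TGANTCA, since Runx3, the T-box factors T-bet and Eomes, and AP-1 are known regulators of killer cell genes. Runx matches were in 14% of all 32851 promoters, T-box matches in 11.8%, AP-1 matches in 6.75%, and Runx and T-box matches together in 2.13%. The 4 promoters below are the 3 that hold a Runx and a T-box match together and that of Gzmb, as an example without the pair. Promoters with the pair did not share one order of levels. Nkg7 did not pass between CD8, CD4 and NK cells, whereas Gzmc, with no T-box match, had the order NK, CD8, CD4 as Gzma did. A link between matches and levels was not tested. Capitals mark the matches, written as they stand on the gene's own strand, so ACCACA and ACACCT are the motifs on the opposite strand. They are, in order, chr13:113100982-113101231 (minus strand), chr10:61297586-61297835 (plus), chr7:43436888-43437137 (plus) and chr14:56262335-56262584 (minus).
Gzma: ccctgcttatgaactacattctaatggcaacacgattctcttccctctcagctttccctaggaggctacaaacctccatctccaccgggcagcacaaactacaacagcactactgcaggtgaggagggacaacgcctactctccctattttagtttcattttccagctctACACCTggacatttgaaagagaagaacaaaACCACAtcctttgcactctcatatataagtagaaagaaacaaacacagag
Prf1: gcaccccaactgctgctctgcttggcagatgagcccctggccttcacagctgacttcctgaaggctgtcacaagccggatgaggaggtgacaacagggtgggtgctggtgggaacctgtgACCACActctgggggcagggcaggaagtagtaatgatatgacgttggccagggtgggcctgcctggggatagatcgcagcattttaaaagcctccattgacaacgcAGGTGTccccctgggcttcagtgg
Nkg7: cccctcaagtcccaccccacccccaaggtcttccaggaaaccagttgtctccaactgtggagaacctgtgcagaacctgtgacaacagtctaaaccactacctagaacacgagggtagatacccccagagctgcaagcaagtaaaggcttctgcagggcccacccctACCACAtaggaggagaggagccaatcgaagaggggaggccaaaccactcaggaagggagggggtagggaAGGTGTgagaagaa
Gzmb: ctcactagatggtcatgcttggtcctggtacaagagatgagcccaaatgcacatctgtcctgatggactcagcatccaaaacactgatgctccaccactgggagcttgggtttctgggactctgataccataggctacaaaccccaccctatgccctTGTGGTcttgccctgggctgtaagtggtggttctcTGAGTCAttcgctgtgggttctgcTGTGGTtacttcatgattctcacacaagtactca
Gzma, Prf1 and Nkg7 each held a Runx and a T-box match, and Gzmb held a pair of Runx matches with an AP-1 match between them and no T-box match. Of the others, Gzmk had T-box matches, Gzmc had Runx matches, and the promoters of Ifng and Fasl had no match of these letters in this window. No motif match overlapped another.

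After filters, 13489 to 18808 cells per library remained, with 1639 to 4281 median UMIs per cell, and 53 to 88 cell barcodes were shared between any pair of libraries. The CD8 T cell gate held 542 cells in OE-Vector 1 and 360, 302 and 501 cells in OE-MLKL 1 to 3. The CD4 gate held 190, 58, 128 and 106 cells, the Foxp3 gate 63, 21, 53 and 52 cells, and the NK gate 56, 1, 33 and 90 cells in the same order. The single NK cell of OE-MLKL 1 gives no level of its own, and it is left out of the shares and of the orders within a library below. Its sum does enter the edgeR fits, so the NK fold changes and p-values include it unless said otherwise. Genes that no gate used were read as a check. The regulatory T cell genes Il2ra, Ctla4, Ikzf2, Ikzf4, Tnfrsf18 and Tnfrsf4 summed to 4934 to 6004 counts per 1000000 UMIs (CPM) in the Foxp3 gate and to at most 2055 CPM in any other gate. A list of 8 NK genes, which includes Tyrobp and Fcer1g of myeloid cells, summed to 6498 to 8871 CPM in the NK gate and 1263 to 2511 CPM in the CD8 gate, but also to 7046 to 10171 CPM in neutrophils and 4356 to 5819 CPM in macrophages, so it does not mark NK cells among all cells. The T cell genes Cd5, Cd6, Lck, Cd2, Cd28 and Themis, read for the CD8 gate, summed to 850 to 1177 CPM there, below the CD4 gate (1485 to 2075) and the Foxp3 gate (1410 to 1970) and above the NK gate (347 to 413). The helper genes Cd40lg, Icos, Tnfrsf4, Cd28 and Cd5, read for the CD4 gate, summed to 1297 to 1932 CPM there and to 1845 to 2933 CPM in the Foxp3 gate, against 441 to 605 CPM in the CD8 gate. The CD8 list thus did not mark the CD8 gate among T cells, and the CD4 list did not separate CD4 from Foxp3 T cells. Mlkl itself was at 13.4 CPM over all cells of OE-Vector 1 and at 8.13, 12.1 and 15.4 CPM in the libraries labelled OE-MLKL 1 to 3, and at 12.5, 7.82, 11.7 and 13.9 CPM in cancer cells. The targeted transcript was thus not separated between the labelled groups, and whether the construct carries the 3′ end that this assay reads is not given in the sources used here. Barcodes with at most 100 UMIs, which hold free RNA, contained Gzma at 176, 20.8, 26.8 and 104 CPM and Nkg7 at 66.4, 22.5, 22.5 and 48.7 CPM.

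The first question was which of the 4 cell groups carried each gene. In short, Gzma and Prf1 were highest in NK and CD8 T cells, and Gzmb was shared by CD8, NK and Foxp3 T cells and was low in CD4 T cells. Nkg7, Ifng and Fasl were found in CD8, CD4 and NK cells and were low in Foxp3 T cells. Of these, Fasl was higher in NK than in CD8 and CD4 T cells. Counts were summed per library and gate and tested with edgeR's quasi-likelihood test with the library as a block, over 16 sums and 5396 genes, with Benjamini-Hochberg adjustment over all of them and a threshold of 0.05. No member was used by a gate.

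**Figure D1:**
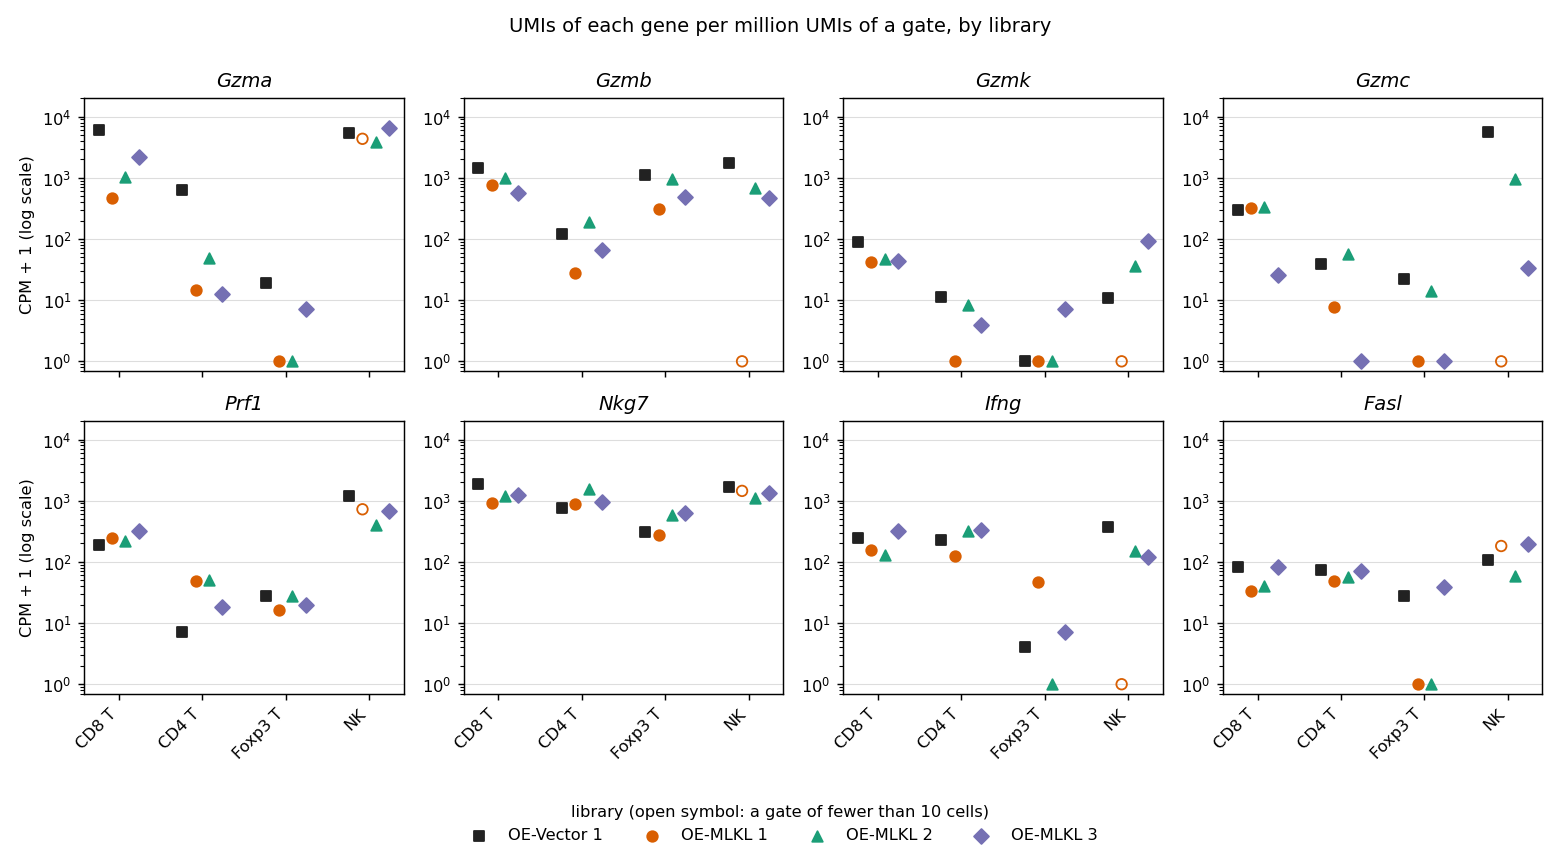
Level of each cytotoxic granule gene (CPM plus 1, log axis) in CD8 T cells, CD4 T cells, Foxp3 T cells and NK cells, one point per library, with open symbols for a gate of fewer than 10 cells. Gzma spans from 0 in Foxp3 T cells of OE-MLKL 1 and 2 to 6442 CPM in NK cells of OE-MLKL 3, whereas Nkg7 stays between 276 and 1873 CPM.

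Granzyme A had the widest range. In NK cells Gzma was at 5415, 3799 and 6442 CPM in OE-Vector 1 and OE-MLKL 2 and 3, and in CD8 T cells at 6131 CPM in OE-Vector 1 and at 464, 1032 and 2169 CPM in OE-MLKL 1 to 3. CD4 T cells had 636, 13.6, 47.3 and 11.6 CPM, and Foxp3 T cells had 18.1, 0, 0 and 6.21 CPM, from 7 UMIs in all. The levels of NK and CD8 T cells overlapped, since in OE-Vector 1 CD8 T cells were above NK cells, while CD4 and Foxp3 T cells were below both in each library. Gzma was 2.59-fold higher in NK than in CD8 T cells (log2 fold change 1.37 ± 0.28 SE, edgeR adjusted p = 0.000216), 16.7-fold higher in CD8 than in CD4 T cells (4.06 ± 0.33, edgeR adjusted p = 1.82e-15) and lower in Foxp3 than in CD4 T cells (-4.51 ± 0.69, edgeR adjusted p = 1.64e-06). Every step of the order NK, CD8, CD4, Foxp3 thus passed the test, but few cells bore on the last step. In OE-Vector 1, 7 CD4 T cells held 96.7% of the 609 Gzma UMIs of the gate. Without them CD4 T cells had 22.4 CPM there, against 18.1 CPM in Foxp3 T cells. The CD4 levels of OE-MLKL 1 and 3, 13.6 and 11.6 CPM, were below the 20.8 and 104 CPM of their free RNA.

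Granzyme B had another order. In CD8 T cells Gzmb was at 1448, 771, 975 and 561 CPM, in NK cells at 1774, 672 and 467 CPM in OE-Vector 1 and OE-MLKL 2 and 3, and in Foxp3 T cells at 1108, 306, 949 and 485 CPM. CD4 T cells had 118, 27.2, 189 and 64.0 CPM, the lowest of the gates in each library. Gzmb was 6.83-fold higher in Foxp3 than in CD4 T cells (log2 2.77 ± 0.27 SE, edgeR adjusted p = 7.77e-12), 10.1-fold higher in CD8 than in CD4 T cells (3.34 ± 0.26, edgeR adjusted p = 3.54e-16) and 8.24-fold higher in NK than in CD4 T cells (3.04 ± 0.28, edgeR adjusted p = 1.12e-13). The NK against CD4 difference turned to -0.86 when cells with as many or more UMIs of other lineages, such as macrophages, as of T or NK genes were kept. The 3 upper gates overlapped, and neither CD8 against Foxp3 T cells (0.56 ± 0.22, edgeR adjusted p = 0.0873) nor NK against CD8 T cells (-0.29 ± 0.24, edgeR adjusted p = 0.442) passed. Gzmb was therefore the granzyme that Foxp3 T cells carried, with a UMI in 54.0, 42.9, 66.0 and 50.0% of them, against 3.70% of B cells in OE-Vector 1 and 0 in the B cells of the other libraries.

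Granzymes K and C were below granzymes A and B in CD8 T cells of each library. Gzmk, a granzyme best known from memory-type CD8 T cells, was at 89.4, 41.4, 46.5 and 43.4 CPM in CD8 T cells and at 9.75, 34.7 and 91.0 CPM in NK cells of OE-Vector 1, OE-MLKL 2 and OE-MLKL 3, which overlapped. It was at 10.4, 0, 7.47 and 2.91 CPM in CD4 T cells and was found as 1 UMI in the 189 Foxp3 T cells. Gzmk was 8.52-fold higher in CD8 than in CD4 T cells (log2 3.09 ± 0.39 SE, edgeR adjusted p = 7.28e-09) and did not pass between NK and CD8 T cells (edgeR adjusted p = 0.686) or between Foxp3 and CD4 T cells (edgeR adjusted p = 0.437).

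Gzmc, a granzyme of strongly activated killer cells, varied most between libraries. NK cells had 5630 CPM in OE-Vector 1, 938 in OE-MLKL 2 and 33.1 in OE-MLKL 3, and CD8 T cells had 296, 318, 334 and 25 CPM. OE-MLKL 3 was thus low in both gates. CD4 T cells had 38.6, 6.81, 54.8 and 0 CPM, and Foxp3 T cells had 9 UMIs in all. Gzmc was 4.79-fold higher in NK than in CD8 T cells (log2 2.26 ± 0.37 SE, edgeR adjusted p = 3.15e-06) and 12.8-fold higher in CD8 than in CD4 T cells (3.68 ± 0.44, edgeR adjusted p = 2.48e-09), and CD4 and Foxp3 T cells did not differ past the threshold (edgeR adjusted p = 0.479). The NK level of OE-Vector 1 came from few cells. There 7 of 56 NK cells held 99.4% of the 1155 Gzmc UMIs, and 1 cell held 482 of them. In OE-MLKL 3 the NK and CD8 levels were close, at 33.1 and 25 CPM. The sign of NK against CD8 T cells turned among cells with no other-lineage UMI at all, as given below.

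Perforin was a gene of NK cells and, at a lower level, of CD8 T cells. Prf1 was at 1175, 405 and 682 CPM in NK cells of OE-Vector 1, OE-MLKL 2 and OE-MLKL 3 and at 186, 245, 222 and 318 CPM in CD8 T cells, with the NK value above the CD8 value in each of these libraries. CD4 T cells had 6.26, 47.7, 49.8 and 17.5 CPM and Foxp3 T cells 27.1, 15.3, 26.2 and 18.6 CPM. Prf1 was 3.09-fold higher in NK than in CD8 T cells (log2 1.63 ± 0.24 SE, edgeR adjusted p = 6.45e-07) and 11.0-fold higher in CD8 than in CD4 T cells (3.46 ± 0.33, edgeR adjusted p = 6.44e-13). CD4 and Foxp3 T cells overlapped (0.00 ± 0.52, edgeR adjusted p = 0.999). Foxp3 T cells were 11.0-fold below CD8 T cells for Prf1 (CD8 over Foxp3, 3.45 ± 0.41, edgeR adjusted p = 4.82e-10), whereas their Gzmb did not pass against CD8 T cells.

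Nkg7, the granule membrane gene, was the most widely detected member. It was at 1873, 923, 1205 and 1247 CPM in CD8 T cells, at 1691, 1123 and 1323 CPM in NK cells of OE-Vector 1, OE-MLKL 2 and OE-MLKL 3, and at 758, 872, 1541 and 957 CPM in CD4 T cells. These 3 gates overlapped and none of the contrasts among them passed, with NK against CD8 T cells at -0.06 ± 0.21 and CD8 against CD4 T cells at 0.42 ± 0.20 on the log2 scale (edgeR adjusted p = 0.888 and 0.183). Foxp3 T cells had 304, 276, 576 and 634 CPM, the lowest of the gates in each library, and were lower than CD4 T cells (-1.27 ± 0.23, edgeR adjusted p = 4.03e-05). Of all CD8 T cells 96.4% had a Nkg7 UMI, as did 92.2% of NK cells and 71.6% of CD4 T cells, against 1.82% of macrophages, so that Nkg7 was not a marker of CD8 T and NK cells alone in these tumours.

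Ifng, the gene of interferon-γ, was at 243, 155, 131 and 314 CPM in CD8 T cells, at 225, 123, 319 and 332 CPM in CD4 T cells and at 370, 151 and 120 CPM in NK cells of OE-Vector 1, OE-MLKL 2 and OE-MLKL 3. Again these gates overlapped, and CD8 against CD4 T cells gave -0.22 ± 0.22 (edgeR adjusted p = 0.618). Foxp3 T cells had 5 Ifng UMIs in 189 cells, and Ifng was 33.6-fold lower there than in CD8 T cells (log2 difference, CD8 over Foxp3, 5.07 ± 0.52, edgeR adjusted p = 6.73e-12).

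Fasl, the gene of Fas ligand, was at 81.5, 32.5, 39.0 and 81.2 CPM in CD8 T cells, at 73.1, 47.7, 54.8 and 69.8 CPM in CD4 T cells and at 107, 57.9 and 194 CPM in NK cells of OE-Vector 1, OE-MLKL 2 and OE-MLKL 3. CD8 against CD4 T cells gave a log2 difference of 0.00 ± 0.21 (edgeR adjusted p = 0.995), NK cells were 1.88-fold above CD8 T cells (0.91 ± 0.25, edgeR adjusted p = 0.0068), and Foxp3 T cells, with 15 UMIs, were below CD4 T cells (-1.74 ± 0.39, edgeR adjusted p = 0.00121).

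Counted over the 8 members, 5 were higher in CD8 than in CD4 T cells (all but Nkg7, Ifng and Fasl), where 4.58% of all genes tested were higher. In NK cells, 4 were higher than in CD8 T cells (Gzma, Gzmc, Prf1 and Fasl, against 7.25% of all genes) and 6 were higher than in CD4 T cells (all but Nkg7 and Ifng, against 4.82%). All members but Gzmb, 7 of 8, were higher in NK cells than in Foxp3 T cells, against 6.21% of all genes, and the same 7 were higher in CD8 than in Foxp3 T cells, against 6.12%. Foxp3 T cells were above CD4 T cells in 1 member, Gzmb, and below them in 4, Gzma, Nkg7, Ifng and Fasl, where 2.5% of all genes were higher and 3.37% were lower. With DESeq2 in place of edgeR, only Fasl of the 4 NK against CD8 calls remained. These contrasts also rested on the rule that a cell has more T or NK UMIs than other-lineage UMIs. Without it Foxp3 against CD4 T cells had no call by edgeR, where 4 members had an unadjusted p under 0.05 and log2 differences such as 2.76 for Gzmb and -5.61 for Ifng stood beside 2.77 and -5.29, and the 5 CD8 against CD4 calls became 3 (Gzma, Gzmb and Gzmk). The share of all genes at that unadjusted threshold is not given, so nothing is read from the count of 4. Without it the NK gate also turned below CD8 T cells for Gzma (log2 -3.36), Gzmc (-1.43), Prf1 (-2.61) and Fasl (-3.06), below CD4 T cells for Gzmb (-0.86), Gzmk (-1.01) and Fasl (-2.97), and below Foxp3 T cells for Nkg7 (-2.38) and Fasl (-1.15).

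Detection per cell was set against cells that should lack the genes, after thinning each cell to 1000 UMIs so that depth did not set the share. Gzma had a UMI in 49.6, 18.3, 33.1 and 25.9% of CD8 T cells in OE-Vector 1 and OE-MLKL 1 to 3, and in 40.9, 11.1, 23.2 and 20.9% after thinning. NK cells had Gzma in 83.9, 72.7 and 84.4% of cells in OE-Vector 1 and OE-MLKL 2 and 3, and in 79.2, 65.4 and 79.1% after thinning. For CD4 T cells the share was 10.0, 1.72, 3.91 and 2.83% unthinned and 5.77, 1.32, 2.95 and 1.01% after thinning. After thinning, B cells had 4.67% in OE-Vector 1 and 0 in the other libraries, and macrophages 1.44, 0.116, 0.162 and 0.808%. Unthinned, B cells of OE-Vector 1 had 8.64% (median depth 1882 UMIs, against 3789 in the CD4 gate) and the deeper macrophages 8.96% (7010 UMIs). Gzma was found in 9.52, 0, 0 and 1.92% of Foxp3 T cells (2.87, 0, 0 and 0.761% after thinning), where 0 of 21 and 0 of 53 cells allow shares of up to 14.3 and 5.66%. At equal depth the measured CD4 share was above those of macrophages and B cells in each library. In OE-MLKL 1 and 3 it came from only 1 and 3 CD4 T cells with a Gzma UMI. The B cells of OE-MLKL 1 to 3 with at least 1000 UMIs were only 27, 19 and 13, so their share of 0 sets no firm order. The Foxp3 share was above that of macrophages and below that of B cells in OE-Vector 1, and in OE-MLKL 3, from 1 UMI, it was below that of macrophages and above the 0 of B cells.

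**Figure D2:**
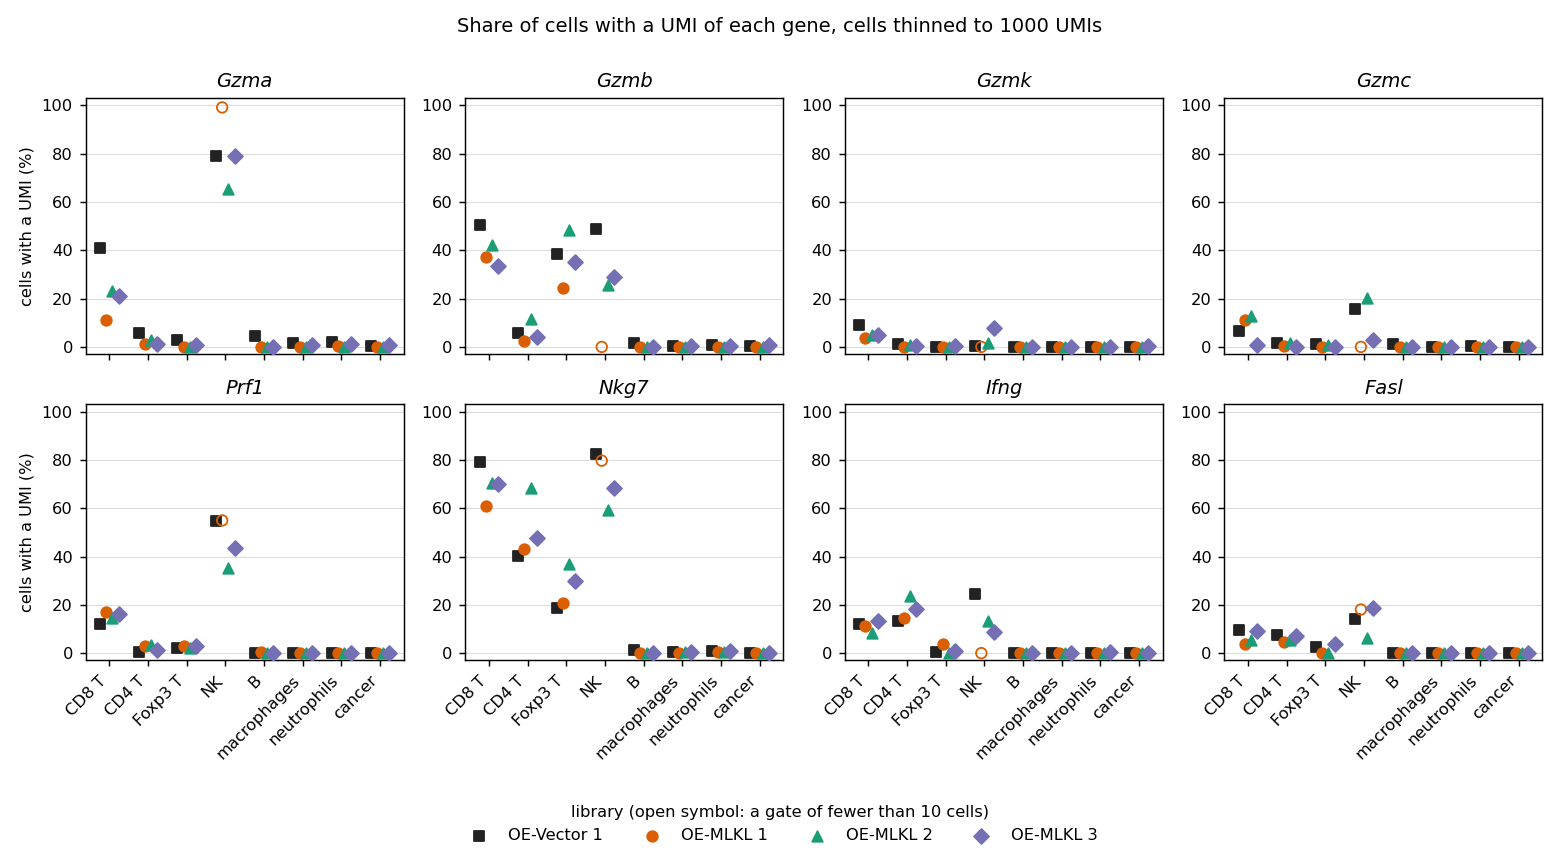
Share of cells (percent) with a UMI of each gene after thinning to 1000 UMIs per cell, in the 4 gates and in B cells, macrophages, neutrophils and cancer cells as cells that should lack the genes, one point per library. Nkg7 reaches 61.1 to 79.4% of CD8 T cells and Gzmb 24.2 to 48.5% of Foxp3 T cells.

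Prf1 and Ifng had little background. After thinning, each was in at most 0.34% of B cells, macrophages, neutrophils and cancer cells of any library, whereas Prf1 was in 12.1 to 17.1% of CD8 T cells and 35.3 to 54.8% of NK cells and Ifng in 8.45 to 13.4% of CD8 T cells and 13.4 to 23.8% of CD4 T cells. Unthinned, Prf1 was found in 37.8, 45.8, 41.7 and 43.3% of CD8 T cells and in 76.8, 60.6 and 64.4% of NK cells of OE-Vector 1, OE-MLKL 2 and OE-MLKL 3. Ifng was found in 31.7, 35.0, 27.5 and 36.7% of CD8 T cells and in 31.1, 29.3, 43.8 and 33.0% of CD4 T cells, and in 0 of 203 B cells. A CD8 T cell had a median of 4 of the 8 members in OE-Vector 1 and 3 in each OE-MLKL library, NK cells a median of 3 to 4, CD4 T cells 1 to 2, and Foxp3 T cells 1. At least 4 members were found in 51.1, 42.5, 46.4 and 40.1% of CD8 T cells and in 1 of the 189 Foxp3 T cells.

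Within CD8 T cells, a minority of cells held most Gzma UMIs. Those with 10 or more Gzma UMIs were 182 of 542 cells (33.6%) in OE-Vector 1 and 21 (5.83%), 39 (12.9%) and 86 (17.2%) cells in OE-MLKL 1 to 3. They held 98.7, 83.5, 84.6 and 98% of all Gzma UMIs of the gate, while 273 of 542, 294 of 360, 202 of 302 and 371 of 501 cells had none. In NK cells the high cells were 34 of 56 (60.7%), 12 of 33 (36.4%) and 54 of 90 cells in OE-Vector 1 and OE-MLKL 2 and 3, so that they outnumbered the cells below that level in 2 of the 3 libraries, all but OE-MLKL 2.

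**Figure D3:**
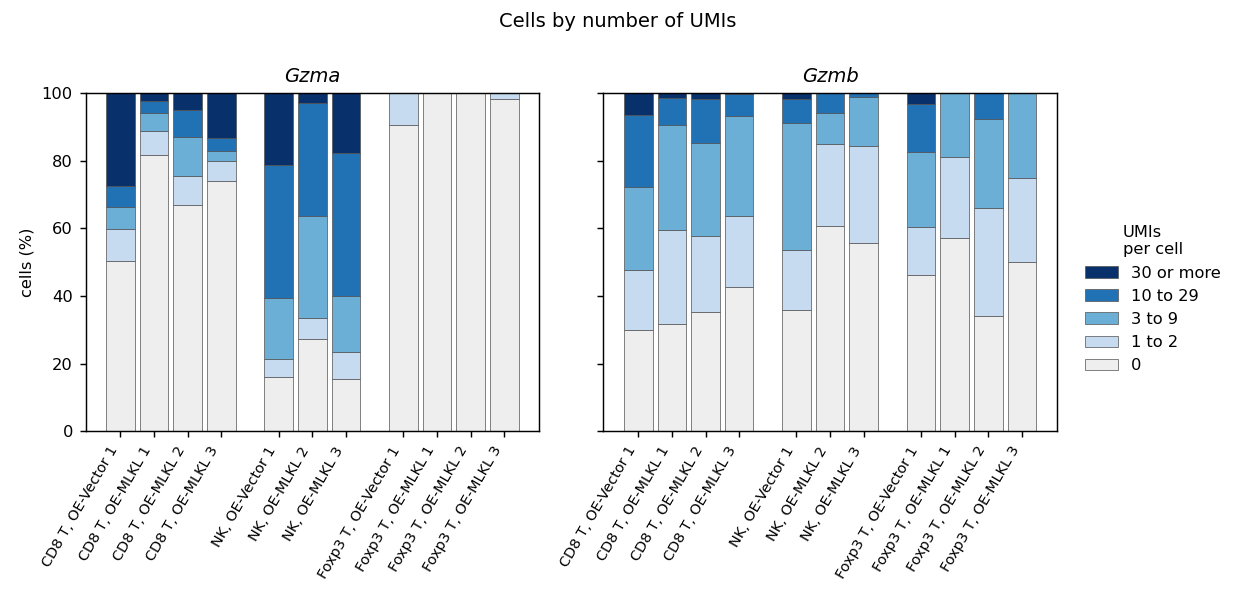
Share of cells (percent) by their number of Gzma or Gzmb UMIs (0, 1 to 2, 3 to 9, 10 to 29, 30 or more), in CD8 T cells, NK cells and Foxp3 T cells of each library, without the single NK cell of OE-MLKL 1. CD8 T cells with 10 or more Gzma UMIs make up 33.6% of the gate in OE-Vector 1 and 5.83 to 17.2% in the OE-MLKL libraries.

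CD8 T cells with 10 or more Gzma UMIs differed from those with none in other genes, as a description over cells of the same libraries. Gzmb was at 3574 against 619 CPM in OE-Vector 1, at 2961 against 596 in OE-MLKL 1, at 2559 against 559 in OE-MLKL 2 and at 2025 against 360 in OE-MLKL 3. Ifng went the other way, at 137 against 266, 112 against 146, 86.6 against 121 and 29.3 against 356 CPM. Pdcd1, which encodes the checkpoint receptor PD-1, was at 77.5 against 263, 294 against 404, 179 against 276 and 22.0 against 253 CPM. In each of the 4 libraries the Gzma-high cells thus had more Gzmb and less Ifng and Pdcd1 than the cells without Gzma. Other genes compared in the same way are not given here, so no cell state is read from these. Median depth moved with this split, at 3230.5 against 4603, 1906 against 4405, 3205 against 3707.5 and 2756 against 4239 UMIs, and its part in the CPM values was not tested. A UMI of an NK lineage gene was present in 42 of 182, 2 of 21, 6 of 39 and 10 of 86 Gzma-high CD8 T cells, against 23.6, 15.8, 15.2 and 22.8% of the whole gate.

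CD8 T cells with a UMI of 6 cycling genes were compared with the others within each library. Gzma was lower in cycling cells in all 4 libraries, at 4669 against 9683, 297 against 899, 417 against 3094 and 1055 against 4798 CPM, a mean log2 ratio of -1.93 ± 0.79 (SD, n = 4). Prf1 was higher in all 4, with a mean of 0.75 ± 0.44, and Gzmb was near 0 on average, at -0.02 ± 0.46. Gzmc (1.78 ± 1.86, the largest mean and the widest spread) and Ifng (0.78 ± 0.80) were higher in 3 of 4 libraries, and Gzmk (-0.36 ± 0.59) was higher in 1 of 4. Nkg7 (-0.37 ± 0.21) and Fasl (-0.73 ± 0.53) were lower in all 4 libraries. With 4 libraries the exact two-sided permutation test cannot reach 0.05, and after adjustment over 16 tests every such p was at least 0.5. Cycling cells were deeper, with a median of 6177 against 3079 UMIs in OE-Vector 1, and in the NK gate, with 3 usable libraries, the smallest possible exact p is 0.25, so that no member could pass.

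**Figure D4:**
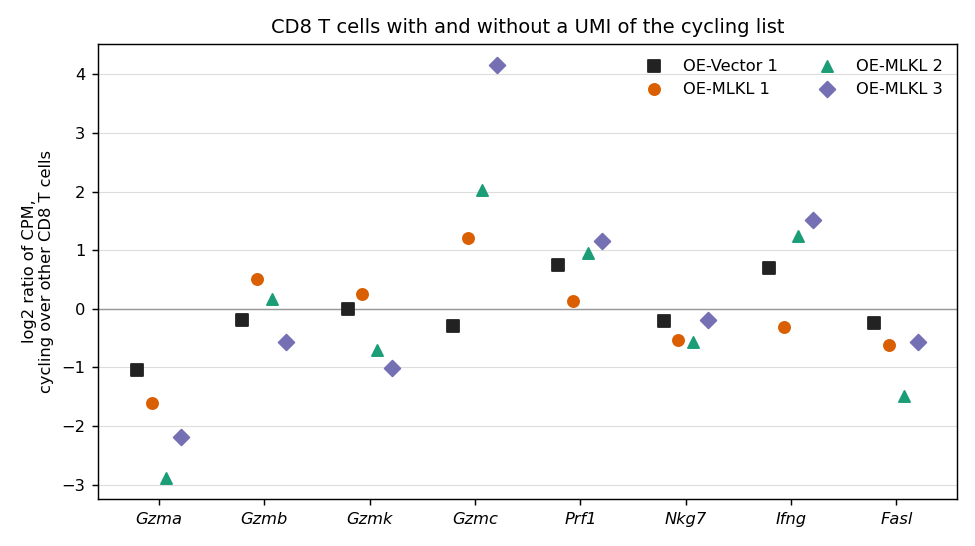
Log2 ratio of the level (CPM) in cycling over other CD8 T cells for each gene, one point per library, with 0 as the line of no difference. All 4 points of Gzma lie below 0, from -2.89 to -1.05, and all 4 points of Prf1 lie above 0.

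The second question was whether the members differed between the libraries labelled OE-MLKL and OE-Vector within each gate. One member passed in CD4 T cells (Gzma), one passed in NK cells (Gzmc), and none passed in CD8 or Foxp3 T cells. For both calls, 7 cells held most of the gene's UMIs in OE-Vector 1. Sums per library were fitted with edgeR, where the lone OE-Vector library was assumed to vary as the OE-MLKL libraries do. The spread was pooled over genes, so these p-values do not rest on the spread of each gene alone.

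In CD8 T cells, 0 of 8 members were called by edgeR, and 0.0% of the 10863 genes tested were. At an unadjusted p under 0.05 there were 2 members and 438 genes, limma-voom called 0 members, and DESeq2 called 1, Gzma. Gzma, at 6131 CPM in OE-Vector 1 and 464, 1032 and 2169 CPM in OE-MLKL 1 to 3, had a log2 fold change of -2.40 ± 0.59 SE (edgeR quasi-likelihood adjusted p = 0.884), and Gzmk had -1.03 ± 0.34 (unadjusted p = 0.01). OE-Vector 1 was above each OE-MLKL library for both, and also for Gzmb (-0.89 ± 0.47), Nkg7 (-0.74 ± 0.43) and Fasl (-0.71 ± 0.41), and below each of them for Prf1 (0.48 ± 0.37). Ifng (-0.32 ± 0.43) and Gzmc (-0.32 ± 0.93) overlapped. How many of all genes lie outside the OE-MLKL range was not counted, so no result is read from this order. Without OE-MLKL 3, edgeR called 2 members, Gzma and Fasl, and 365 of 10252 genes. Depth moved little with the groups in this gate, with a median of 4049 UMIs per cell for OE-Vector 1 and of 4435.5, 3707.5 and 3786 UMIs for OE-MLKL 1 to 3.

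In CD4 T cells, 7 members were tested and 1 was called, where 0.565% of the 6902 genes tested were called. Gzma was at 636 CPM in OE-Vector 1 and at 13.6, 47.3 and 11.6 CPM in OE-MLKL 1 to 3, a log2 fold change of -4.63 ± 0.49 SE (edgeR adjusted p = 5.18e-17). Of its 609 UMIs in OE-Vector 1, 7 of the 190 cells held 96.7%, and 1 cell held 313 UMIs. The OE-MLKL libraries had 2, 19 and 4 Gzma UMIs in 1, 5 and 3 CD4 T cells, with no cell above 7 UMIs. Prf1 was at 6.26 CPM in OE-Vector 1 and at 47.7, 49.8 and 17.5 CPM in OE-MLKL 1 to 3 (log2 2.45 ± 0.79, edgeR adjusted p = 0.166), from 6, 7, 20 and 6 UMIs, and was called (2.90) when OE-MLKL 3 was left out. The other members, Gzmb, Gzmc, Nkg7, Ifng and Fasl, overlapped between groups or had log2 fold changes of -0.73 to 0.50 that did not pass.

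In Foxp3 T cells, only Gzmb and Nkg7 had enough UMIs to be tested, and 0 of 2 were called, where 0.283% of 3886 genes were. At an unadjusted p under 0.05 there was 1 member by edgeR, Gzmb, and neither DESeq2 nor limma-voom called a member. The share of all genes at that unadjusted threshold is not given, so nothing is read from this count. Gzmb was at 1108 CPM in OE-Vector 1 and at 306, 949 and 485 CPM in OE-MLKL 1 to 3 (log2 -0.93 ± 0.46 SE, edgeR adjusted p = 0.841). Nkg7 was at 304 CPM and at 276, 576 and 634 CPM (0.69 ± 0.46), where the groups overlapped.

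In NK cells, 1 of 8 members was called, where 0.398% of 3772 genes were, all of them lower in OE-MLKL. Gzmc was at 5630 CPM in OE-Vector 1, at 938 in OE-MLKL 2, at 33.1 in OE-MLKL 3 and at 0 in the single NK cell of OE-MLKL 1 (log2 -3.98 ± 0.80 SE, edgeR adjusted p = 0.000235). Its 1155 UMIs in OE-Vector 1 were in 11 of 56 cells, and 7 cells held 99.4% of them. In that library, 8 of the 9 NK-gated cells without Gzma had a Gzmc UMI, against 3 of the 47 with Gzma. DESeq2 called no member, and without OE-MLKL 1, whose NK gate is the single cell, the log2 fold change was -3.60 and edgeR called none.

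The NK gate of OE-Vector 1 also held mast cell and basophil genes, at a summed 2462 CPM against 0 in the other libraries, all in 2 cells. One, with 14919 UMIs, held 496 of these UMIs, among them 238 of Tpsb2, 145 of Cpa3 and 81 of Mcpt4, all mast cell proteases, with 4 NK lineage UMIs, 1 of them Ncr1, and with no Gzmc, 1 of Gzmb and 2 of Prf1. The other, with 22254 UMIs, had 9 UMIs of Mcpt8, a basophil protease, and none of Cpa3, Mcpt4, Tpsb2, Cd200r3 or Fcer1a. It also had 10 NK lineage UMIs and 5 of Eomes, none of Ncr1, and 482 of Gzmc, 184 of Gzmb and 74 of Prf1. Without the 2 cells, an alternative chosen after seeing the data, Gzmc stayed at 4006 CPM and was still called (log2 -3.48), while all genes called in the gate went from 15 to 2. Gzmb in OE-Vector 1 went from 1774 to 1066 CPM, Prf1 from 1175 to 982 CPM and Gzma from 5415 to 6519 CPM. In the full gate Gzmb (-2.10 ± 0.86), Ifng (-1.73 ± 0.80), Prf1 (-1.34 ± 0.90), Nkg7 (-0.75 ± 0.86), Gzma (-0.49 ± 0.76) and Fasl (0.18 ± 0.83) did not pass, nor did Gzmk, with 2 UMIs in OE-Vector 1.

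**Figure D5:**
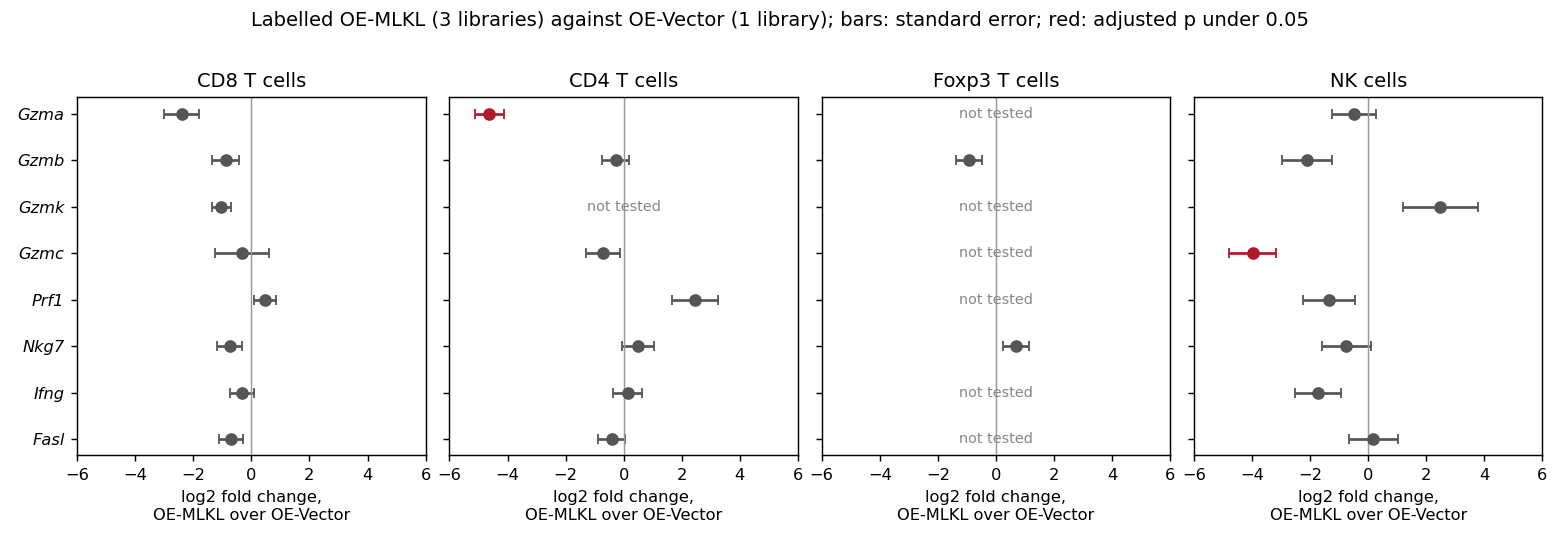
Log2 fold change between the groups, OE-MLKL over OE-Vector, with its standard error for each gene tested in CD8 T cells, CD4 T cells, Foxp3 T cells and NK cells, with red for an edgeR adjusted p under 0.05. Gzma in CD4 T cells (-4.63) and Gzmc in NK cells (-3.98) are red, and Gzma in CD8 T cells (-2.40) is not.

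The difference between gates was tested itself, as the 3 gate by group terms together in the joint fit. It passed for 6 of the 8 members (Gzma, Gzmc, Gzmk, Ifng, Nkg7 and Prf1), where 1.76% of 5396 genes passed, and not for Gzmb (edgeR adjusted p = 0.103) or Fasl (0.920). These 6 calls depended on the settings. DESeq2 called 2 members (Gzma and Prf1), and edgeR called 2 (Gzma and Gzmc) among cells with no other-lineage UMI at all, 3 (Gzma, Gzmc and Prf1) with doublets kept or without OE-MLKL 3, and 0 without the condition on other-lineage UMIs, where 0 members had an unadjusted p under 0.05. For NK against CD8 T cells alone, 5 members passed where 0.463% of all genes did. The OE-MLKL effect was higher in NK than in CD8 T cells by 1.84 ± 0.41 on the log2 scale for Gzma (edgeR adjusted p = 0.00347), which in NK cells was at 5415 CPM in OE-Vector 1 and at 3799 and 6442 CPM in OE-MLKL 2 and 3. It was lower in NK cells by log2 differences of -3.46 ± 0.40 for Gzmc (edgeR adjusted p = 8.13e-15), -1.74 ± 0.34 for Prf1 (0.000244) and -1.66 ± 0.43 for Ifng (0.0241). Gzmk passed as well (edgeR adjusted p = 0.00413), on 2 NK UMIs in OE-Vector 1, too few for a fold. DESeq2 called no member in this NK against CD8 contrast, nor did edgeR without the condition on other-lineage UMIs, where Gzma turned to -0.40, or with no other-lineage UMI at all, where Gzmc turned to 0.88. At an unadjusted p under 0.05 there were 4, 2 and 3 members in these 3 fits. The share of all genes at that threshold is not given, so nothing is read from these counts. Gzma was no longer called without the cells with a mast or basophil UMI, and when OE-MLKL 3 was left out edgeR called Gzmc and Prf1 alone.

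Other genes of the killer pathway were read from lists. Between the groups in CD8 T cells, none of the 61 list genes tested passed by edgeR. Among the other granzymes Gzmf, of the chromosome 14 group, was at 189, 1768, 1071 and 29.7 CPM there and Gzme at 9.57, 112, 62.2 and 0.781 CPM, which overlapped between groups. In CD4 T cells 2 of the 5 genes listed as granzyme inhibitors were higher in OE-MLKL. Serpina3g was at 34.4 CPM in OE-Vector 1 and at 252, 346 and 137 CPM in OE-MLKL 1 to 3 (log2 2.77 ± 0.59 SE). Serpinb9b was at 18.8 CPM and at 211, 102 and 8.73 CPM, where the groups overlapped. That Serpina3g inhibits a granzyme is not shown by its place on the list. The median of that list was 1.42 against 0.05 for all genes. Of 8 cytokines and death ligands tested in the gate, the chemokine genes Ccl3, Ccl4 and Ccl5 were higher (log2 2.50, 2.53 and 2.35). Csf2, the gene of GM-CSF, was lower, at 84.6 CPM in OE-Vector 1 and 6.81, 22.4 and 32.0 CPM in OE-MLKL 1 to 3. The share of all genes called in CD4 T cells is given above. The CD4 gate also held 307 to 899 CPM of 5 neutrophil genes and 531 to 1397 CPM of 5 macrophage genes. The part of such RNA in the chemokine levels was not tested. Gzmf was at 1.04 CPM, from 1 UMI, in OE-Vector 1 and at 61.3, 110 and 43.7 CPM in OE-MLKL 1 to 3. In NK cells Gzmd was at 3115, 0, 69.5 and 0 CPM, Gzmg at 2003, 0, 34.7 and 0 CPM and Gzme at 804, 0, 81.1 and 0 CPM. Gzmf was at 58.5, 0, 521 and 0 CPM. EdgeR called 3 of the 4 other granzymes tested in this gate lower in OE-MLKL. No direction is read from Gzmd, Gzmg and Gzme. OE-MLKL 2 had only 6, 3 and 7 UMIs of them, and OE-MLKL 1 and 3 had none. Most of their UMIs in OE-Vector 1 came from 1 cell. That cell, the one with 22254 UMIs named above, held 542 of the Gzmd, 408 of the Gzmg and 154 of the Gzme UMIs of OE-Vector 1. Without the 2 cells Gzmd was at 577 CPM in OE-Vector 1, Gzme at 65.5 CPM, below OE-MLKL 2, and Gzmg at 17.9 CPM, from 3 UMIs. Gzmd was still called in that fit (log2 -4.78 ± 0.94 SE), and Gzme was not (-1.38 ± 1.04).

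Between gates, CD8 T cells were above CD4 T cells in 3 of 3 other granzymes tested (Gzmd, Gzme and Gzmf) and in 5 of 8 receptors of killer cells, among them Klrk1, which encodes NKG2D (log2 2.87), and Klrd1, which encodes CD94 (2.21). They were above them in 1 and below in 1 of 10 genes for granule packaging and release, Gnptab (1.34), needed to sort enzymes to lysosomes, and Srgn (-0.75), the granule proteoglycan. None of the 5 genes listed as granzyme inhibitors passed by edgeR between CD8 and CD4 T cells. Of 8 transcription factors, 2 were higher in CD8 than in CD4 T cells, Eomes (4.12) and Runx3 (0.81), and 2 were lower, Bhlhe40 (-0.68) and Id2 (-0.63), with a list median of -0.19. Of 5 naive and memory genes tested, 4 were lower, among them Il7r (-1.37) and Lef1 (-1.25). Between CD8 and CD4 T cells 641 of all 5396 genes passed in either direction, 247 of them higher in CD8 T cells.

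NK cells were above CD8 T cells in 6 of 8 transcription factors, among them Eomes (log2 3) and Tbx21 (0.92), which encodes T-bet. They were also above them in 3 of 5 genes listed as granzyme inhibitors, including Serpinb9 (1.49), which protects killer cells from their own granzyme B. They were below CD8 T cells in 5 of 6 exhaustion and checkpoint genes, among them Pdcd1 (-3.25), Havcr2 (-4.20) and Lag3 (-3.97). Between NK and CD8 T cells 864 of all 5396 genes passed in either direction, 391 of them higher in NK cells. Foxp3 T cells, which carried Gzmb, were below CD4 T cells in 3 of 5 genes listed as granzyme inhibitors, among them Serpinb9 (-1.99) and Serpinb6b (-2.61), and above them in Serpina3g (1.27). The median over those 5 genes was -1.99, against -0.01 for all genes. Among all genes tested 3.37% were lower and 2.5% were higher in Foxp3 than in CD4 T cells.

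Which genes varied most like each member was read over the 16 sums of library and gate, as Pearson correlations of log2(CPM + 1) across 5392 genes, given as a description because sums of one library share its depth and tumour. Gzma was closest to Gpr18 (r = 0.92), Car2 (0.91) and Klrk1 (0.90), and Prf1 to Eomes (0.91), Adamts14 (0.90) and Lrrk1 (0.88). Gzmb was closest to Cdca2 (0.91), Cdt1 (0.91) and B3gat3 (0.90), of which Cdca2 and Cdt1 are genes of dividing cells. Nkg7 was closest to Klrd1 (0.87), Ctsw (0.86) and Klrc2 (0.86), and Fasl to Litaf (0.93), Rabggtb (0.92) and Ctsw (0.90). Gzmc was closest to its neighbours Gzmd (0.88) and Gzme (0.83) and to Ly6c2 (0.80), Gzmk to Cd244a (0.87), Trdc (0.83) and Cd7 (0.82), and Ifng to Lax1 (0.88), Gm14029 (0.87) and Frmd4a (0.87). Among the members, Gzma went with Prf1 (0.80), Fasl (0.78) and Nkg7 (0.77) and had a correlation of 0.0099 with Gzmb, which was 0.37 without the NK sum of OE-MLKL 1. These neighbours depended on the single NK cell of OE-MLKL 1, and without its sum only Gzma kept its closest gene, Gpr18 (0.93). The closest gene to Gzmb was then C1qtnf6 (0.86), to Gzmc Anxa2 (0.93) and to Ifng Cd226 (0.92). For Gzmk it was Gzma (0.88), for Prf1 Ccl5 (0.91), for Nkg7 Xcl1 (0.92) and for Fasl Clec2i (0.95).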

How the data were processed

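Single-cell 3′ RNA libraries of 4 tumours were analysed from the deposited unfiltered matrices, which hold raw UMI counts per gene and barcode made by the authors with Cell Ranger. The file headers name software version 7.1.0, the submitters' processing notes name Cell Ranger 2.1.1 and mm10, and the study's methods name another version, so the version and the treatment of intronic reads could not be settled. CPM was computed here from the deposited counts. The 8 members and all lists were chosen with earlier results of these data known.

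The libraries held 150591289 to 169978362 UMIs. Cells had at least 500 UMIs, over 200 genes, under 10% mitochondrial and at most 5% haemoglobin UMIs, and simulated-doublet scores (2000 variable genes, 20 components) removed 0.8% per 1000 cells, 1893 to 4255 per library. T cells had a UMI of Cd3d, Cd3e or Cd3g and at least 2 T lineage UMIs. They were gated as CD8 (Cd8a or Cd8b1, no Cd4 or Foxp3), CD4 (Cd4, no Cd8a, Cd8b1 or Foxp3) or Foxp3 (no Cd8a or Cd8b1). NK cells had no Cd3 UMI and at least 2 UMIs of Ncr1, Klrb1c, Klre1, Klra4, Klra7 and Klra8. In every gate these UMIs had to outnumber those of 20 genes of other lineages.

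UMI sums per library and gate were tested with edgeR 4.0.16 (quasi-likelihood test, TMM scaling, filterByExpr, Benjamini-Hochberg adjustment over all genes tested), in R 4.3.3. The SE of an edgeR log2 fold change was derived as its absolute value over the square root of the quasi-likelihood F statistic. DESeq2 1.42.0, limma-voom 3.58.1, other scalings, filters, gates and left-out libraries were alternatives. The scripts were tested on simulated counts. The labels do not say how far the tumours of a group are independent beyond their numbering, so p-values refer to these libraries alone. EdgeR pooled the spread over genes, so a small p does not show that a gene's own levels were close between libraries. Gzmc in NK cells, for example, was at 938 and 33.1 CPM in OE-MLKL 2 and 3. A single OE-Vector library gives no spread of its own, and an exact permutation test of 1 against 3 libraries cannot go below p = 0.25. Shares thinned to 1000 UMIs left out shallower cells, and limits on a share of 0 (3 counts, 95% level) cover counting error only. Named genes were all members, the called genes of each list, at most 5 per comparison by smallest p, 2 of a list with none called, and the 3 genes most correlated with each member. Gzmd, Gzmg, Serpinb6b and the genes of single cells were named where a count or value turned on them, after their values were seen. Figures were drawn with matplotlib 3.10.9.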

Additional observations from a re-analysis of the deposited data

Results flagged for a closer look

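For 6 members the difference between OE-MLKL and OE-Vector was not the same in CD8 T, CD4 T, Foxp3 T and NK cells by edgeR's test of the gate by group terms. The adjusted p was 1.85e-10 for Gzma, which in CD4 T cells was at 636 CPM in OE-Vector 1 and at 11.6 to 47.3 CPM in OE-MLKL, and in NK cells at 5415 CPM and at 3799 and 6442 CPM in OE-MLKL 2 and 3. It was 2.29e-14 for Gzmc, at 5630 CPM in NK cells of OE-Vector 1 and at 938 and 33.1 CPM in OE-MLKL 2 and 3, against 296 CPM and 25 to 334 CPM in CD8 T cells. For Prf1 it was 8.29e-07, with 1175 CPM in OE-Vector 1 and 405 and 682 CPM in OE-MLKL 2 and 3 in NK cells, and 6.26 CPM against 17.5 to 49.8 CPM in CD4 T cells. Ifng had an adjusted p of 0.00176, Gzmk of 0.0101 and Nkg7 of 0.0114. The NK gate of OE-MLKL 1 entered these fits with 1 cell, whose values are not given here. With DESeq2 2 of the 6 passed, Gzma and Prf1, and without OE-MLKL 3 edgeR called 3 of them, Gzma, Gzmc and Prf1.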

How the results depend on the processing

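No paired analysis was possible because only replicate number 1 is shared by OE-Vector and OE-MLKL libraries with a matrix. Of the 15 to 17 alternatives per comparison, most kept the count of members called within 1.5 times. In CD8 T cells, where edgeR called 0 members, DESeq2 called 1, no filter 1, and leaving out 1 library 0 to 2 (2 without OE-MLKL 3). In CD4 T cells leaving out 1 library gave 1 to 2 (2 without OE-MLKL 3). In NK cells the 1 call became 0 with DESeq2, without the condition on other-lineage UMIs, with no other-lineage UMI at all, and with sums of fewer than 10 cells left out (chosen after seeing the data), 2 with limma-voom, and 0 to 1 leaving out 1 library (0 without OE-MLKL 1). For NK against CD8 T cells 4 became 1 with DESeq2, 7 without the condition on other-lineage UMIs, and 2 with no other-lineage UMI at all or no library block. Without that condition the counts were 3 for NK against CD4 T cells, 3 for NK against Foxp3, 3 for CD8 against CD4, 3 for CD8 against Foxp3 and 0 for Foxp3 against CD4 T cells. NK against CD4 T cells gave 3 with no other-lineage UMI at all, and Foxp3 against CD4 gave 3 with no library block. For the difference between gates 6 became 2 with DESeq2, 3 with doublets kept, 0 without the condition, 2 with no other-lineage UMI, and 3 to 5 leaving out 1 library (3 without OE-MLKL 3).

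Directions turned in these cases, as log2 differences, and the cause was not tested. Between the groups Gzmc in CD8 T cells went to 1.66 with no other-lineage UMI and from -0.69 to 0.24 leaving out 1 library (0.24 without OE-MLKL 3). In CD4 T cells leaving out 1 library moved Gzmb from -1.41 to 0.11 (0.026 without OE-MLKL 1, 0.11 without OE-MLKL 3), Gzmc from -4.18 to 0.014 (without OE-MLKL 3) and Ifng from -0.12 (without OE-MLKL 2) to 0.39, Gzmc was 1.51 in the strict gate, and Ifng was -1.08 with doublets kept. Nkg7 in Foxp3 T cells went to -0.55 with no other-lineage UMI. Fasl in NK cells went to -1.02 without the condition, -0.0992 without cells with a mast or basophil UMI (chosen after seeing the data) and from -0.76 (without OE-MLKL 3) to 0.40 leaving out 1 library. Without the condition, NK against CD8 T cells gave Gzma -3.36, Gzmc -1.43, Prf1 -2.61 and Fasl -3.06, NK against CD4 gave Gzmb -0.86, Gzmk -1.01 and Fasl -2.97, and NK against Foxp3 gave Nkg7 -2.38 and Fasl -1.15. The NK minus CD8 difference of the fold change between groups then gave Gzma -0.40. With no other-lineage UMI, Gzmc gave -0.028 for NK against CD8 T cells and 0.88 for the NK minus CD8 difference of the fold change between groups. In cycling CD8 T cells leaving out 1 library moved Gzmb from -0.19 to 0.16 (0.037 without OE-Vector 1, 0.16 without OE-MLKL 3). In cycling NK cells it moved Gzmb from -0.39 (without OE-Vector 1) to 0.58, Gzmc from -1.64 to 0.16 (without OE-MLKL 2), Nkg7 from -0.39 (without OE-MLKL 2) to 0.47 and Ifng from -1.69 to 0.20 (without OE-Vector 1). There Gzmb was -0.0974 and Nkg7 -0.00608 with doublets kept, and -0.92 and -0.18 with at least 2 cycling UMIs.

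Over all genes, calls ranged from 0 to 365 in CD8 T cells (0 in the fit reported), 4 to 156 in CD4 (39), 0 to 91 in Foxp3 (11) and 0 to 28 in NK cells (15), and from 115 to 5322 for NK against CD8 (864), 116 to 4655 for NK against CD4 (613), 173 to 3517 for NK against Foxp3 (778), 97 to 823 for CD8 against CD4 (641), 252 to 986 for CD8 against Foxp3 (786), 54 to 514 for Foxp3 against CD4 (317) and 1 to 141 for the difference between gates (95). Scaling by library size alone moved the median log2 fold change of all genes from 0.05 to 0.15 in CD4 T cells and from -0.02 to 0.20 in NK cells, and Gzma in CD4 T cells and Gzmc in NK cells were still called. Gzma in CD4 T cells was called in each of 15 alternatives, from -6.27 to -4.13. None of these was set to leave out the 7 cells of OE-Vector 1 with most of its Gzma UMIs. Without them Gzma was at 22.4 CPM there, within the OE-MLKL range. Depth limits Gzma, Gzmk, Gzmc and Ifng in Foxp3 T cells, with 7, 1, 9 and 5 UMIs.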

Other observations

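T cells that fell in no gate, because they had no UMI of Cd4, Cd8a, Cd8b1 or Foxp3 or had both kinds, were 217 of 1012 T cells of OE-Vector 1, and 106 of 545, 156 of 639 and 157 of 816 T cells of OE-MLKL 1 to 3. They entered no comparison.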
